A study of Mus musculus with 2 samples.

Results

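The genes described here encode the non-collagen scaffold of the extracellular matrix and the enzymes that crosslink it: elastic fibre proteins, fibulins, latent TGF-beta binding proteins, lysyl oxidases, proteoglycans, adhesive and matricellular glycoproteins, and basement membrane linkers. The set was given as 40 named genes, and every non-control probe whose RefSeq accession belongs to one of them was taken, which gave 63 probes for 40 of the 22911 genes named on the array. RNA came from the whole pancreas of male C57BL/6 mice aged 5 weeks, with 1 array for the WT group and 1 array for the Nrdc-cKO group. The Nrdc-cKO group is Ptf1a-Cre; Nrdc flox/flox, in which the promoter of Ptf1a, active in the progenitors of the pancreas and later in its acini, drives Cre that removes Nrdc, the gene of the metalloendopeptidase nardilysin, from cells with a history of Ptf1a expression. This Cre is known for recombination in the pancreatic epithelium, while fibroblasts, the main makers of these matrix proteins, come from mesenchyme. The labels do not say whether WT animals carried Cre or floxed alleles, how many animals gave the RNA of an array, or which exons are deleted. The study asked what nardilysin does in the exocrine gland, and the values below describe these 2 arrays, without replicates, so no spread across mice is known and nothing was tested.

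Extracellular matrix is a network of collagen fibrils, elastic fibres and hydrated proteoglycans around cells, with a basement membrane under epithelium and around vessels. In elastic fibres, elastin is laid down on microfibrils of fibrillin and fixed there by lysyl oxidases, with fibulins and latent TGF-beta binding proteins as go-betweens. In the pancreas most of this material is made by stellate cells and other fibroblasts, and it accumulates when the gland is injured chronically.

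Promoters are given for 4 members. Pcolce, Sparc and Ogn were higher on the Nrdc-cKO array and Vtn was the member furthest in the other direction in the scaling used here, although it was higher there with spike-in scaling. They were picked after the values were seen. Each sequence is the 250 bases before the transcription start given by RefSeq for GRCm38.p6, 5′ to 3′ on the gene's own strand. Capitals mark matches, on either strand, to the TATA box TATAAA, the GC box GGGCGG, the AP-1 site TGANTCA, the SMAD-type sequence CAGACA or the TEAD-type site GGAATG. The Pcolce window lies at chr5:137611405-137611654 on the minus strand, the Sparc window at chr11:55420081-55420330 on the minus strand, the Ogn window at chr13:49607765-49608014 on the plus strand and the Vtn window at chr11:78498870-78499119 on the plus strand.
Pcolce: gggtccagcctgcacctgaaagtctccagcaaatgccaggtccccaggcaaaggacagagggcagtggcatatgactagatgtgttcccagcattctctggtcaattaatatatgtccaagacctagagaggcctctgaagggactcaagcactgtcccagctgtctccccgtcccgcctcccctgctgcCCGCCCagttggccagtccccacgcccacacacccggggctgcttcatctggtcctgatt
Sparc: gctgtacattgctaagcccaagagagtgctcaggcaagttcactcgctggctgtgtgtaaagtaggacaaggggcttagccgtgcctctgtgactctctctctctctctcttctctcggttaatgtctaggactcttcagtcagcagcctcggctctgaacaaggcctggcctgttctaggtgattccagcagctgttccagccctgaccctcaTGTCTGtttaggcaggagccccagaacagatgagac
Ogn: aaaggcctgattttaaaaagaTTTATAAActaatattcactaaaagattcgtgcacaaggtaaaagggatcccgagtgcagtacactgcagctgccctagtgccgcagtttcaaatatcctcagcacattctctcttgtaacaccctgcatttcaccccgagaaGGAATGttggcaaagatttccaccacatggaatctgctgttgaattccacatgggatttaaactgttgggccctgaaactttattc
Vtn: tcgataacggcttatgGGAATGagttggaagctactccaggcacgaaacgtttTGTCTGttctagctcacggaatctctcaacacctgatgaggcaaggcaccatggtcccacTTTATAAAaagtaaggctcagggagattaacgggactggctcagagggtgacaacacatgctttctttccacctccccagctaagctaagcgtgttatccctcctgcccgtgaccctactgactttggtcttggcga

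In these windows Pcolce has a GC box on the opposite strand, 60 to 55 bases before the start, and Sparc has a CAGA sequence on the opposite strand, 36 to 31 bases before it. Ogn has the letters TATAAA on both strands of 1 stretch, TTTATAAA, 229 to 222 bases before the start, and a match to the TEAD-type site at 86 to 81 bases. Vtn has the same stretch at 137 to 130 bases, a CAGA sequence on the opposite strand at 197 to 192 bases and a match to the TEAD-type site at 234 to 229 bases. The RefSeq promoter table held 33 such windows for 25 of the 40 members. The GC box was in 19 of these windows (57.6%), against 32.7% of all 32851 windows in the table, and the CAGA sequence was in 11 (33.3%), against 17.1%. TATAAA was in 7 (21.2%, against 12.4%), GGAATG in 4 (12.1%, against 12.6%) and TGANTCA in 2 (6.06%, against 6.75%). These counts are a description of letters in a short window, and several windows can belong to 1 gene.

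Levels are log2 of the processed signal minus the 75th percentile of that array, so that 0 is the 75th percentile, and differences are Nrdc-cKO minus WT. A member was measured when at least 1 of its probes was well above background on both arrays, and 2-fold (a log2 difference of 1.0) is the size used for counts. Spots well above background made up 46.3% of the WT array and 60.3% of the Nrdc-cKO array, and before scaling the 75th percentile stood 1.68 (log2) higher on the Nrdc-cKO array. Nrdc itself had a level of 1.93 in WT and -1.28 in Nrdc-cKO, 9.25-fold lower, by 1 probe whose place relative to the deleted part is not known. This difference of -3.21 was -2.23 and -2.20 with normexp and -1.31 with spike-in scaling. Repeat spots of a probe gave a technical error for the log2 difference of 0.03 (median SD over 291 probes), and the scanner software's own error for a member probe's difference had a median of 0.21. Neither covers animal, dissection, RNA extraction or labelling.

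Most of the matrix genes were higher on the Nrdc-cKO array. Among the 34 members measured on both arrays, 23 (67.6%) were higher by 2-fold or more, where 12.8% of all 13001 genes measured on both arrays were. With spike-in scaling, which adds 1.90 to every difference on the log2 scale, these counts were 33 members and 79.8% of all genes, and in the authors' deposited value table they were 29 members and 22.2%. A single member, Vtn, was lower by 2-fold or more (2.94%), against 17.3% of all genes, and it was higher with spike-in scaling. The median difference of the measured members was 1.41, with quartiles of 0.87 and 1.75, beside a median of -0.18 and quartiles of -0.75 and 0.41 for all genes. Lum, the gene of the collagen-binding proteoglycan lumican, had the largest difference, 2.33, and 22 members lay between 1.0 and 2.0.

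**Figure D1:**
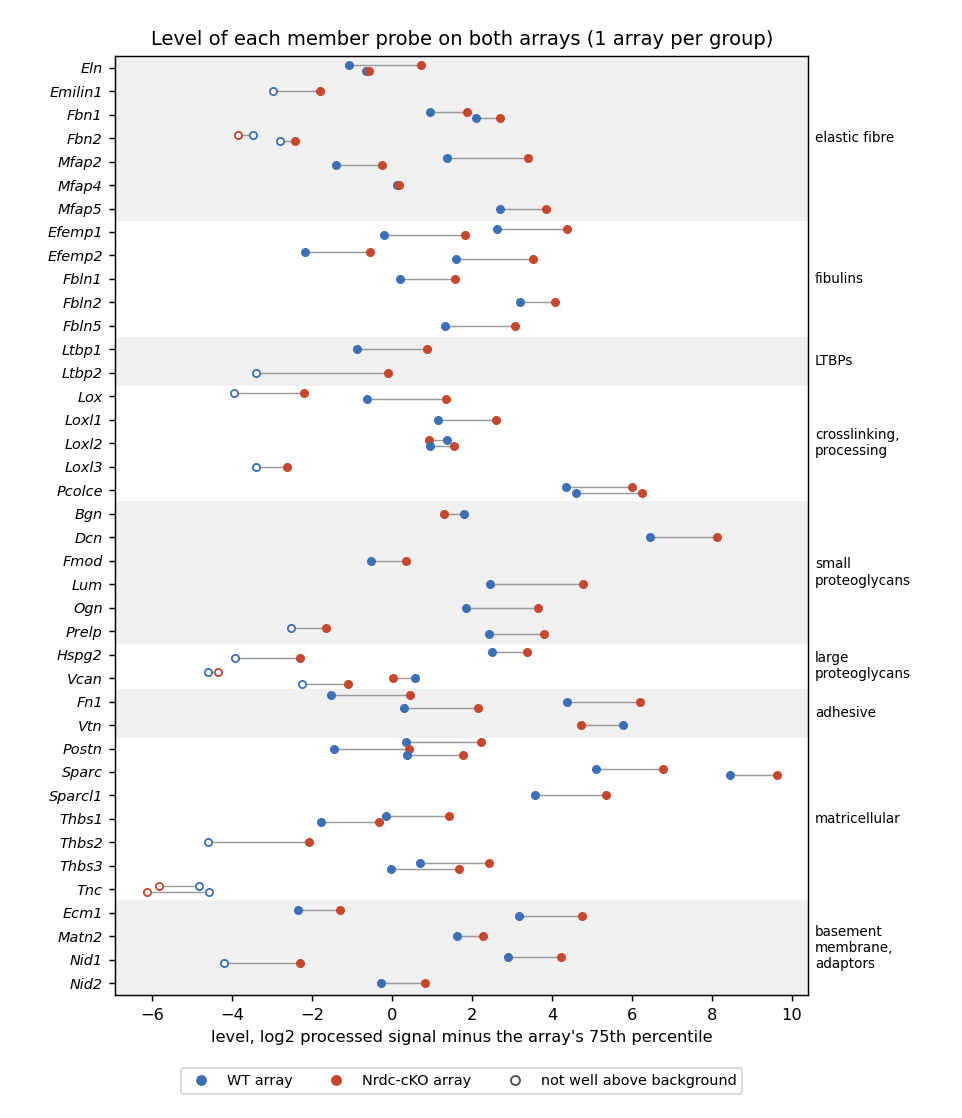
Level of every member probe on the WT array (blue) and the Nrdc-cKO array (red), as log2 processed signal minus the array's 75th percentile, with open points for probes not well above background. Levels of different probes are not comparable, and most red points lie to the right of the blue point of the same probe, with Vtn, Bgn and a probe each of Vcan and Loxl2 the other way among probes measured on both arrays, an order that spike-in scaling turns round for all 4.

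The other members had too little signal to be measured on both arrays. On the Nrdc-cKO array only, 5 members (12.5%) were well above background, against 12.4% of all named genes. No member was so on the WT array only, where just 200 of the 22911 named genes were. Fbn2, Emilin1, Ltbp2, Loxl3 and Thbs2 are these 5, and Tnc was not well above background on either array. Of the probes, 49 were measured on both arrays, 10 on the Nrdc-cKO array alone and 4 on neither. Before any scaling, all 63 probes were brighter on the Nrdc-cKO array, as were 93.2% of the 32993 named probes.

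Markers of several cell types also differed between the arrays. In whole tissue, fewer cells of a type and less RNA per cell cannot be told apart. Of the acinar cell markers, 16 of 17 measured were lower by 2-fold or more, with a median of -1.88, and their summed level, on the linear scale relative to the 75th percentile, was 56600 in WT and 12700 in Nrdc-cKO, although spike-in scaling adds 1.90 to every difference and brings that median to about 0. All 13 measured markers of fibroblast and stellate cells were higher by 2-fold or more, with a median of 1.56, and their summed level was 40.7 in WT and 117 in Nrdc-cKO. Among them, the PDGF receptor gene Pdgfra had a level of 0.04 in WT and 2.25 in Nrdc-cKO. Lrat and Gfap, genes of vitamin A storing stellate cells, were not well above background on either array. Among these markers, Dpt also stands in the list of other elastic fibre and matrix glycoprotein genes. The part of these markers in the results on the matrix genes was not tested.

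**Figure D2:**
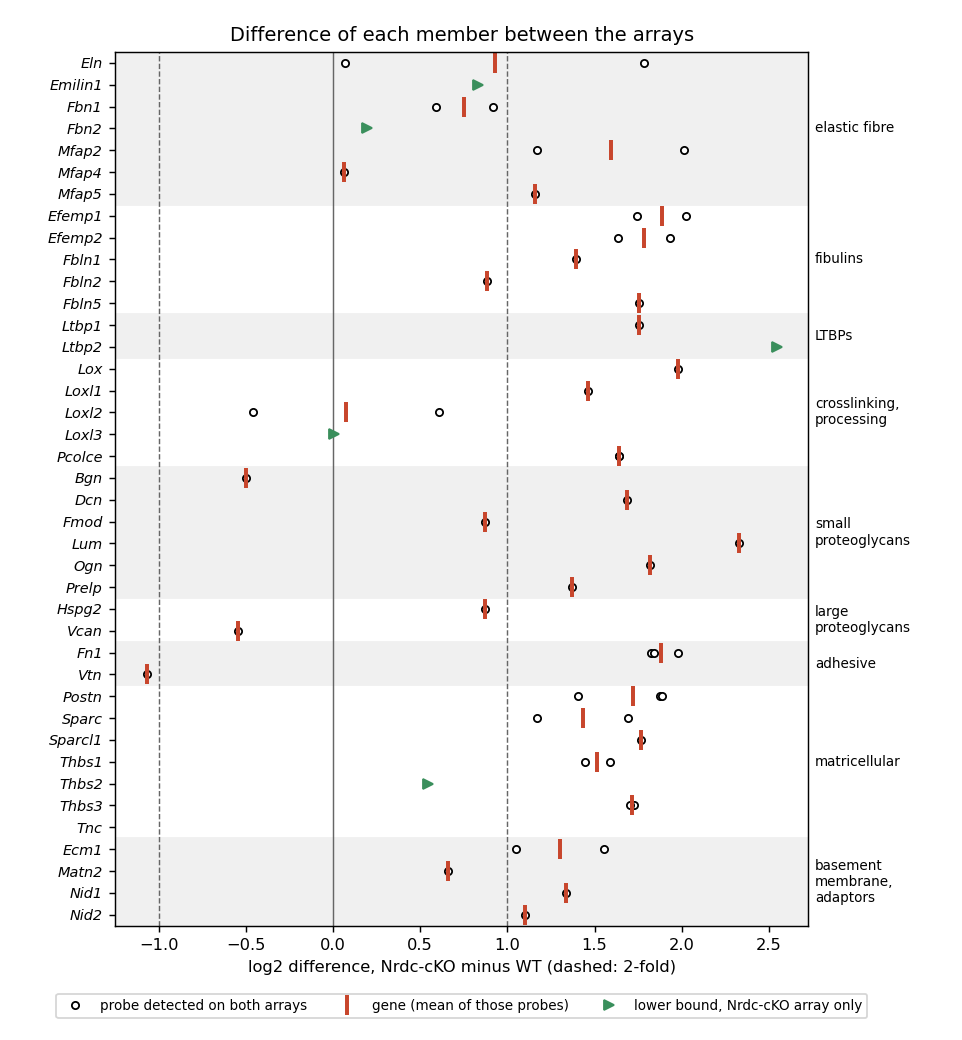
Log2 difference, Nrdc-cKO minus WT, of each member: circles are probes measured on both arrays, red bars the member's mean, and triangles lower bounds for members well above background on the Nrdc-cKO array only. The dashed lines mark 2-fold, 23 red bars lie to the right of the upper line and 1, Vtn, to the left of the lower line, although Vtn, Bgn and Vcan lie above 0 with spike-in scaling.

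Elastic fibre genes were uneven. Of the 7, 5 were measured on both arrays, 2 of them were higher by 2-fold or more, and the median was 0.93. Mfap2, a small glycoprotein attached to fibrillin microfibrils, had a level of -0.02 in WT and 1.58 in Nrdc-cKO, 3.02-fold higher, with differences of 1.17 and 2.01 from its probes. Mfap5, a related microfibril protein, had levels of 2.69 and 3.85 in the same order, 2.23-fold higher. These 2 genes had the largest mean differences of the 5 measured, although the higher of the Eln probes (1.78) exceeded both.

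Eln, which encodes elastin itself, lay just inside the 2-fold limit. Its mean level was -0.86 in WT and 0.06 in Nrdc-cKO, a difference of 0.93 (1.90-fold). Its probes disagreed: one went from -1.07 to 0.71, a difference of 1.78, and the other from -0.66 to -0.59, a difference of 0.07. The value for elastin therefore depends on the probe.

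Fbn1, the main fibrillin of adult microfibrils, had a level of 1.53 in WT and 2.28 in Nrdc-cKO, 1.68-fold higher, with 0.59 and 0.92 from its probes. Mfap4, another microfibril-associated glycoprotein, had a level of 0.12 in WT and 0.18 in Nrdc-cKO. Its difference of 0.06 is smaller than the scanner software's error for that probe, but it was 0.56 in the value table and 1.96 with spike-in scaling. Fbn2, the fibrillin of developing tissue, was well above background on the Nrdc-cKO array only, by 1 of its 2 probes, and the bound was at least 1.15-fold higher. Emilin1, a glycoprotein at the interface of elastin and microfibrils, was also well above background on that array only, at least 1.78-fold higher.

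Fibulins, the bridging proteins that help to assemble elastic fibres and basement membrane, were higher as a group. Of the 5, 4 were higher by 2-fold or more, and the median was 1.75. Efemp1 (fibulin-3) had a level of 1.21 in WT and 3.096 in Nrdc-cKO, 3.69-fold higher, with 1.75 and 2.02 from its probes. Efemp2 (fibulin-4), which brings lysyl oxidase to elastin, had a level of -0.29 in WT and 1.49 in Nrdc-cKO, 3.44-fold higher. Fbln5, which binds elastin to cells, had levels of 1.32 and 3.07, 3.37-fold higher. Both genes known to be needed for elastin assembly, Efemp2 and Fbln5, thus had larger differences than the mean over the Eln probes, though not than its higher probe.

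Fbln1, found in basement membranes and elastic fibres, had a level of 0.19 in WT and 1.58 in Nrdc-cKO, 2.62-fold higher. Fbln2, of vessel walls and basement membranes, had levels of 3.19 and 4.07, a difference of 0.88 that falls short of 2-fold.

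The latent TGF-beta binding proteins tie TGF-beta or microfibrils into the matrix. Ltbp1, which holds latent TGF-beta, had a level of -0.87 in WT and 0.88 in Nrdc-cKO, 3.37-fold higher. Ltbp2, which binds fibrillin but not TGF-beta, had a processed signal of 6.67 on the WT array, not well above background, and 213 on the Nrdc-cKO array. Its bound of at least 5.83-fold higher was the largest of the 5 bounds and the only one past 2-fold, where 22.2% of all genes well above background on the Nrdc-cKO array only had such a bound.

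Among the lysyl oxidases, which oxidise lysines of collagen and elastin so that crosslinks can form, the members were not alike. Lox, the founding enzyme, had a level of -0.62 in WT and 1.35 in Nrdc-cKO, 3.93-fold higher. A further Lox probe was well above background on the Nrdc-cKO array only. Loxl1, the family member tied most closely to elastic fibres, had levels of 1.15 and 2.61, 2.75-fold higher.

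Loxl2, which acts on collagen IV of basement membranes, had a mean level of 1.17 in WT and 1.24 in Nrdc-cKO, a difference of 0.07 that was 0.57 in the value table and 1.97 with spike-in scaling. Its probes went opposite ways, one from 1.38 to 0.92, a difference of -0.46, and the other from 0.95 to 1.56, a difference of 0.60. Loxl3 was well above background on the Nrdc-cKO array alone. Its level there, -2.63, was close to the lowest detected level of the WT array, -2.64, so no fold is given.

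Pcolce, the enhancer that speeds removal of the C-propeptide from fibrillar procollagens, was the member with the most repeat spots. Its level was 4.48 in WT and 6.12 in Nrdc-cKO, 3.12-fold higher. One probe gave 1.64 over 8 repeat spots and the other 1.64 over 10, each with an SD of 0.04 between spots. Across the crosslinking and processing genes, 3 of 4 measured were higher by 2-fold or more and the median was 1.55.

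Small leucine-rich proteoglycans bind collagen fibrils and set their diameter and spacing, and some also bind growth factors. Of the 6, 4 were higher by 2-fold or more and the median was 1.53. Lum had a level of 2.44 in WT and 4.77 in Nrdc-cKO, 5.02-fold higher and above the differences of 97.7% of all measured genes. Dcn (decorin) had levels of 6.45 and 8.14, a difference of 1.69 (3.22-fold higher) that was 2.43 under quantile scaling, 2.43 with loess and 2.40 with normexp and quantile scaling. Ogn (osteoglycin or mimecan) had a level of 1.84 in WT and 3.66 in Nrdc-cKO, 3.52-fold higher. Prelp, which anchors basement membrane to connective tissue, had levels of 2.43 and 3.80, 2.59-fold higher. A further Prelp probe, well above background on the Nrdc-cKO array only, had a smaller difference of 0.86, and the mean with it included was 1.12.

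Fmod (fibromodulin), which also binds fibrillar collagen, had a level of -0.52 in WT and 0.35 in Nrdc-cKO, a difference of 0.87 (1.83-fold). Bgn (biglycan), the close relative of decorin, went the other way, from a level of 1.79 on the WT array to 1.29 on the Nrdc-cKO array, 1.41-fold lower, although with spike-in scaling it was higher by 1.40 (log2). Decorin and biglycan thus stood on opposite sides of the median of all genes, each by 1 probe. Under normexp with the 75th percentile, however, biglycan (-0.12) lay close to the median of all genes (-0.06).

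Many of these genes lie next to each other in the genome. On chromosome 10, Dcn and Lum are followed by Kera and Epyc, proteoglycan genes of cornea and cartilage, and neither of the latter was well above background on either array. On chromosome 13, Ogn lies beside Omd, Aspn and Ecm2, which were all well above background on the Nrdc-cKO array only. Their bounds were at least 2.49-fold for Omd, 2.22-fold for Aspn and 3.39-fold for Ecm2. Of all genes well above background on the Nrdc-cKO array only, 22.2% had a bound past 2-fold. On chromosome 1, Prelp and Fmod lie beside Optc, which was not well above background on either array. The neighbours on chromosome 13 passed the background limit only on the Nrdc-cKO array, so their shared direction is no separate result. These neighbours were also chosen after their values were seen. On chromosomes 10 and 1, members and neighbours without signal lay side by side.

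**Figure D3:**
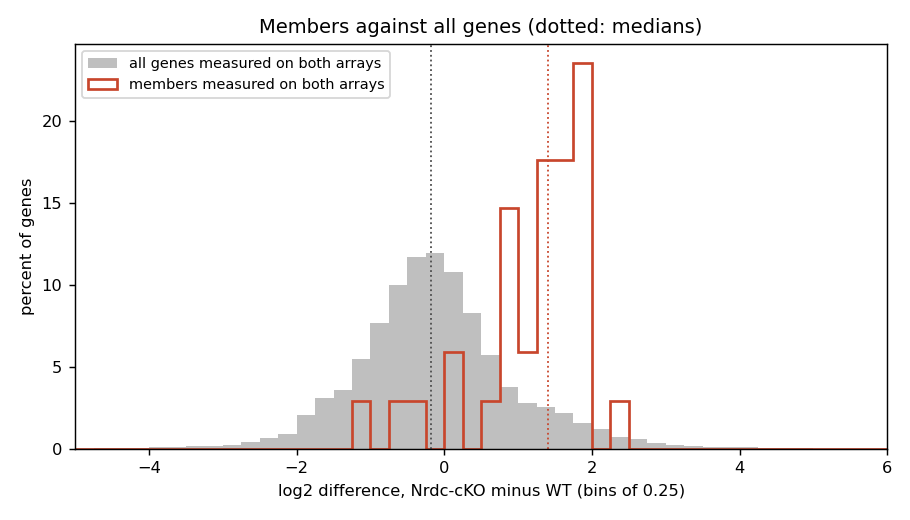
Distribution of log2 differences, Nrdc-cKO minus WT, over the 13001 genes measured on both arrays, with the 34 measured members drawn on the same axis. All genes have a median of -0.18 and the members one of 1.41, and 31 of the 34 members lie above the median of all genes.

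Large proteoglycans did not reach 2-fold in the scaling used here. Hspg2 (perlecan), the heparan sulphate proteoglycan of basement membranes, had a level of 2.51 in WT and 3.38 in Nrdc-cKO, 1.83-fold higher. A further Hspg2 probe was well above background on the Nrdc-cKO array only. Vcan (versican), the hyaluronan-binding proteoglycan of loose matrix, had a level of 0.58 in WT and 0.03 in Nrdc-cKO by 1 probe, 1.46-fold lower, although it was higher by 1.35 (log2) with spike-in scaling and by 0.28 in a mean over all 3 of its probes. One of these others, listed for another transcript, was well above background on the Nrdc-cKO array only, with levels of -2.25 and -1.11, and the direction for versican is therefore uncertain.

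The adhesive glycoproteins stood on opposite sides of 0 in the scaling used here, though not with spike-in scaling. Fn1 (fibronectin), which links collagen, fibrin and integrins, had a mean level of 1.05 in WT and 2.93 in Nrdc-cKO, 3.69-fold higher. Its 3 probes, with levels of -1.53, 0.30 and 4.37 on the WT array, gave differences between 1.82 and 1.98. Fibronectin was thus higher by much the same amount whichever probe was read.

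Vtn (vitronectin), an adhesive protein of plasma and matrix made largely by the liver, had a level of 5.78 in WT and 4.71 in Nrdc-cKO, a difference of -1.07 (2.10-fold lower), although it was higher by 0.83 with spike-in scaling. Its signal before scaling was 3900 in WT and 5970 in Nrdc-cKO, a smaller ratio than the one between the 75th percentiles of the arrays. Of all measured genes, 15.5% had a difference below that of Vtn. It was lower but within 2-fold under quantile scaling (-0.60), loess (-0.53), the 75th percentile over probes measured on both arrays (-0.91), normexp (-0.51 and -0.56) and in the value table (-0.57). As a look at liver RNA, 5 of 10 hepatocyte markers were measured on both arrays, with 2 higher by 2-fold or more and 1 lower. Their differences ran from -2.23 to 3.44, with a median of 0.36, and the list's summed level was 13.3 in WT and 115 in Nrdc-cKO. That sum was not split by gene and can rest on few of them, so it is not a measure of liver RNA. Apoa1, Apoh, Fgb and Cps1, 4 defining genes of hepatocytes, were not well above background on either array. The part of liver RNA in the value of Vtn was not tested.

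Matricellular proteins modulate how cells meet the matrix without forming fibres themselves. All 5 measured on both arrays were higher by 2-fold or more, with a range of 1.43 to 1.77 and a median of 1.72. The range was wider in other scalings, from 1.52 to 2.26 under quantile scaling and from 0.94 to 2.22 under normexp with the 75th percentile. Sparc (osteonectin), a collagen chaperone in the matrix, had a mean level of 6.77 in WT and 8.20 in Nrdc-cKO, 2.70-fold higher, with 1.17 and 1.69 from its probes. Its difference of 1.43 was 2.26 under quantile scaling, 2.21 with loess and 2.27 with normexp and quantile scaling. Sparcl1 (hevin), its relative, had levels of 3.57 and 5.34, 3.41-fold higher, over 10 repeat spots with an SD of 0.06. Postn (periostin), which helps lysyl oxidase act on collagen, had a level of -0.25 in WT and 1.47 in Nrdc-cKO, 3.30-fold higher, with 1.40 to 1.89 over 3 probes.

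The thrombospondins are calcium-binding glycoproteins that engage many matrix and cell surface partners. Thbs1, an activator of latent TGF-beta, had a level of -0.96 in WT and 0.55 in Nrdc-cKO, 2.86-fold higher, but normexp background correction took it below 2-fold, to 0.94 or 0.99. Thbs3, of the group of pentameric thrombospondins, had levels of 0.34 and 2.05, 3.28-fold higher, with 1.70 and 1.73 from its probes. Thbs2, whose loss disturbs collagen fibrils, had a signal of 2.89 on the WT array, not well above background, and 53.4 on the Nrdc-cKO array, at least 1.46-fold higher. Platelets also carry Thbs1, and of 8 platelet and megakaryocyte markers 3 were measured, 1 of them higher by 2-fold or more, with summed levels of 9.25 in WT and 28.6 in Nrdc-cKO and with Gp1ba and Tubb1 not well above background. Their part in the value of Thbs1 was not tested.

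Tnc (tenascin-C), an early product of injured or remodelling tissue, was not well above background with either of its 2 probes on either array. Its signals lay between 2.48 and 4.01, so it has no fold. It was the only member not well above background on the Nrdc-cKO array.

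Basement membrane linkers and adaptors were higher, with a lower median than the matricellular genes. Nid1 (nidogen-1), which joins laminin to collagen IV, had a level of 2.89 in WT and 4.22 in Nrdc-cKO, 2.52-fold higher. Nid2, its partner gene, had levels of -0.28 and 0.82, 2.15-fold higher, and normexp background correction took it below 2-fold. Ecm1, a glycoprotein that binds perlecan and other matrix proteins, had a level of 0.41 in WT and 1.71 in Nrdc-cKO, 2.46-fold higher, with 1.05 and 1.55 from its probes, and it was at 0.96 under normexp with the 75th percentile. Matn2 (matrilin-2), an adaptor between matrix networks, had levels of 1.62 and 2.28, 1.58-fold higher. Of the 4, 3 were higher by 2-fold or more, with a median of 1.20.

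Close to the 2-fold limit, Nid2 (1.10) and Mfap5 (1.16) were the nearest members above it, and Eln (0.93) and Fbln2 (0.88) the nearest below. The 13 members with more than 1 measured probe had a median range of 0.33 between probes. The probes of Eln lay on both sides of 2-fold, and those of Loxl2 on both sides of 0.

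How far the members stood above 0 depended on the scaling, and how far they stood above other genes depended on it less. Relative to the scaling used here, the median of all genes moved by 0.12 under quantile scaling, 0.16 if the 75th percentile came from probes measured on both arrays, 0.26 with loess, 0.12 and 0.14 with normexp, 0.50 in the authors' deposited value table and 1.90 with spike-in scaling. Of all genes past 2-fold, the share that was higher was 42.5% here, 53.0% with that restricted percentile, 59.7% with loess, 58.1% when normexp preceded quantile scaling, 72.9% in the value table and 98.9% with spike-in scaling. The members' median exceeded the median of all genes by 1.59 here, and 31 of the 34 measured members were above that median of all genes. Of the 9 scalings, those that shift an array by 1 constant leave both figures unchanged by construction. These are the restricted percentile, the median over the same probes, spike-in scaling and the value table. The others could change them. There the excess was 1.67 under quantile scaling, 1.58 with loess and 1.38 and 1.29 with normexp, each with 31 of the 34 above. Bgn, Vcan and Vtn were the members below 0 in 8 scalings, and none was below 0 with spike-in scaling. Fbln2 passed 2-fold in 7 of the other 8 scalings and Hspg2 in 6.

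**Figure D4:**
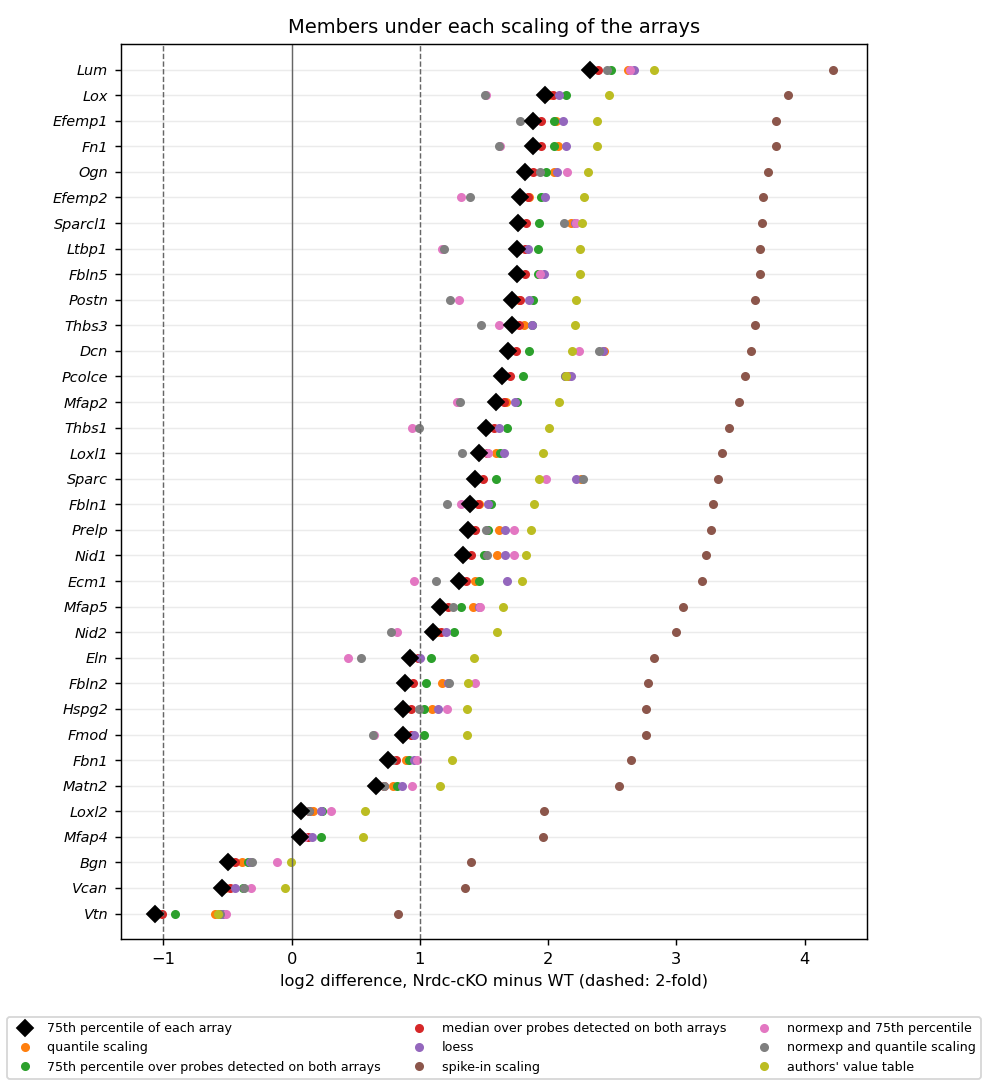
Log2 difference, Nrdc-cKO minus WT, of the 34 measured members under each of 9 scalings, with black diamonds for the 75th percentile and dashed lines at 2-fold. Spike-in scaling shifts every member to the right, which puts Bgn, Vcan and Vtn above 0, and Lum has the largest difference throughout.

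Other genes of the same biology were read from lists of neighbouring function. Among other elastic fibre and matrix glycoprotein genes, 13 of 26 measured were higher by 2-fold or more and 2 lower, with a median of 1.02. Of the 49 with a probe, 16 were well above background on the Nrdc-cKO array only, as were 12.4% of all named genes. A bound past 2-fold was found for 8 of these 16, against 22.2% of all such genes. Having passed the limit on that array only, they are no separate result on direction. Cilp, a glycoprotein of cartilage and fibrous tissue, was 8.20-fold higher, and Matn4, a matrilin, was 2.52-fold lower. Among other proteoglycan core and link proteins, 7 of 13 were higher by 2-fold or more and 2 lower, with a median of 1.21, from the syndecan Sdc3 at 2.16 to the cartilage protein Chad at -1.60.

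The enzymes that build the sugar chains of proteoglycans were mostly within 2-fold, as were most of all measured genes. Of 22 measured glycosaminoglycan synthesis enzymes, 3 were higher by 2-fold or more and 2 lower, and the median was 0.06. Of all genes measured on both arrays, 12.8% were higher and 17.3% lower by as much, with a median of -0.18. Chsy1, a chondroitin synthase, was the highest at 1.57, and Extl3, which starts heparan sulphate chains, was the lowest at -1.90. Collagen hydroxylation, folding and other crosslinking enzymes had 4 of 17 higher and 2 lower, with a median of 0.28. Pcolce2, the relative of Pcolce, was 4.69-fold higher, and P4hb, the protein disulfide isomerase that is also a subunit of prolyl hydroxylase, was 3.98-fold lower.

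Proteases that cut proteoglycans had 5 of 8 higher by 2-fold or more and none lower, with a median of 1.31, from Htra1 at 2.02 to Adamts9 at -0.92. Matrix receptors had 12 of 22 higher, 1 lower and a median of 1.06. The laminin receptor subunit Itga7 was 6.69-fold higher, and Hmmr, a hyaluronan-binding protein of the mitotic spindle, was 3.26-fold lower with unequal probes (-2.71 and -0.70). All 10 measured cell cycle genes were lower by 2-fold or more, with a median of -2.24. Collagens had 9 of 16 higher and 2 lower, with a median of 1.36, from Col1a2 at 2.18 to Col14a1 at -1.34. Spike-in scaling, which adds 1.90 to each difference, puts Matn4, Chad, Adamts9, Hmmr and Col14a1 above 0 and brings P4hb and Extl3 to about 0. The cell cycle median stays below 0 with it, but no measured cell cycle gene stays lower by 2-fold or more. The highest of the cell cycle genes, at -1.36 in the scaling used here, then lies above 0.

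Cells other than fibroblasts make matrix too, and their markers were read from lists in the same way. Smooth muscle cells and pericytes had 6 of 10 markers higher by 2-fold or more and 1 lower, with a median of 1.18, and Lmod1 was not well above background. Their summed level was 115 in WT and 83.0 in Nrdc-cKO. That lower sum depends on the scaling, since the shifts of 0.50 in the value table and 1.90 with spike-in scaling each undo it. Endothelial cells, the makers of much perlecan and nidogen, had 4 of 13 higher and none lower, with a median of 0.73 and summed levels of 44.6 and 77.9. Mesothelial cells had 4 of 6 higher and none lower, with a median of 1.15 and summed levels of 8.58 and 14.7, and Calb2 was not well above background. Schwann cells had 1 of 4 higher and 1 lower, with a median of -0.66 that spike-in scaling takes over 0, and summed levels of 4.14 and 4.09, and Cdh19 and Erbb3 were not well above background.

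Adipocyte, macrophage and islet markers differed too. Of the adipocyte markers, 3 of 7 measured were higher by 2-fold or more and 1 lower, with differences up to 6.40. A further 9 were well above background on the Nrdc-cKO array only, where 12.4% of all named genes were. All 9 had bounds past 2-fold, against 22.2% of all such genes. They passed the background limit only on that array, so their shared direction is no separate result. The list's summed level, which includes signals below background, was 26.6 in WT and 476 in Nrdc-cKO and was not split by gene. Macrophage markers were higher for 10 of 13, with a median of 2.18 and summed levels of 54.0 and 132. Islet endocrine markers had 12 of 13 higher, with a median of 3.92 and summed levels of 384 and 2990, and duct markers had 3 of 10 higher and 2 lower, with a median of 0.69 and summed levels of 66.6 and 192. The part of any of these cells in the values of the matrix genes was not tested.

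**Figure D5:**
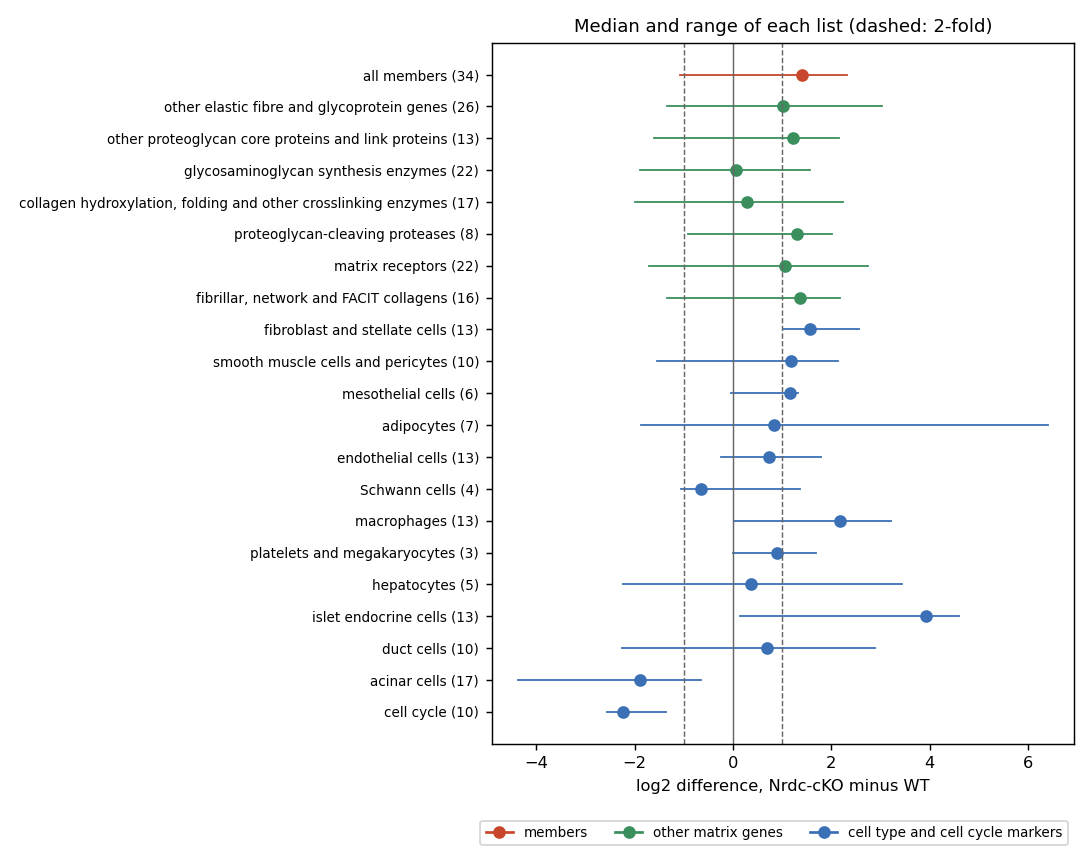
Median (point) and range (line) of the log2 difference, Nrdc-cKO minus WT, for the members, for 7 lists of other matrix genes and for 13 marker lists, with the number of genes measured on both arrays in brackets and dashed lines at 2-fold. The members have a median of 1.41, fibroblast and stellate cell markers 1.56, glycosaminoglycan synthesis enzymes 0.06 and acinar markers -1.88, and all lie 1.90 higher with spike-in scaling.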

How the data were processed

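Total RNA was labelled with Cy3 and read on 1-colour Agilent mouse arrays, per the labels, with 1 array per group and per the file headers both shared a slide and a scan. The deposited scanner files hold a processed intensity per spot, corrected for background by Agilent Feature Extraction. Its version is 12.0.3.1 according to the headers, whereas the submitters' processing notes name 11.5.1.1. The authors' deposited value table holds the same intensity times 1 constant per array (4.37 for WT, 1.92 for Nrdc-cKO), with medians of 42.5 and 66.0, on a linear scale and without centring. The origin of these constants is not known here.

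Here, 80 outlier spots (WT) and 74 (Nrdc-cKO) of 59305 non-control spots were left out, which left 56604 probes. Spots of a probe were averaged on the log2 scale and the array's 75th percentile was subtracted. A probe was detected when a share of 0.5 or more of its spots stood well above background, and a gene's difference is the mean over its probes detected on both arrays. No spot was saturated. A gene detected on 1 array only has a bound: the bright level against the higher of the dim array's lowest detected level (-2.64 for WT) and the probe's own level there. Accessions were named through a RefSeq table of GRCm38.p6, which named 32993 probes and lists Nrdc under an older symbol. Coordinates come from the RefSeq promoter table only, since the array design refers to another build.

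Summed levels add the linear scaled values of a list. Spike-in scaling used 8 control probes, normexp an offset of 50 (limma 3.58.1, R 4.3.3) on the median signal and local background, and loess a span of 0.3 (Python 3.11.15). Scripts were tested on simulated data. Named are all 40 members, Nrdc, the highest and lowest gene of each matrix list, and markers not well above background; Pdgfra, the neighbours of the proteoglycan genes and the promoters shown were chosen after their values were seen. The members and lists were chosen with earlier results of these data known. Dpt and Krt7 each stand in 2 lists. Probes of related family members can take up each other's transcripts.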

Additional observations from a re-analysis of the deposited data

How the results depend on the processing

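No paired analysis was possible because WT and Nrdc-cKO had 1 array apiece, and neither leaving out a replicate nor a slide block could be run. The 23 higher members became 1 at 4-fold (Lum) and 22 to 33 under the other alternatives. In every alternative but the 4-fold limit all 23 kept their call, except Ecm1, Nid2 and Thbs1 under normexp with the 75th percentile, Nid2 and Thbs1 under normexp with quantile scaling, and Ltbp1 with bright probes only (32 members measured). The 1 lower member, Vtn, became 0 under quantile scaling, the 75th percentile over detected probes, loess, spike-in scaling, both normexp settings, the value table and the 4-fold limit, and 2 with no filter on dim probes, where Tnc was added. Vtn was 0.83 with spike-in scaling. The members' median of 1.41 was 1.60 (quantile), 1.57 (75th percentile over detected probes), 1.66 (loess), 3.31 (spike-in), 1.32 and 1.25 (normexp with the 75th percentile and with quantile scaling), 1.91 (value table) and 1.51 (probe with the highest level). Nrdc, at -3.21, was -3.05 (75th percentile over detected probes), -3.10 (loess), -1.31 (spike-in), -2.23 and -2.20 (normexp) and -2.71 (value table). Pure shifts explain the value table, spike-in and restricted percentile by construction; for the rest the cause was not tested. Signal over background limits Tnc, Fbn2, Emilin1, Ltbp2, Loxl3 and Thbs2, none of which was well above background on the WT array.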
